A study of Mus musculus with 6 samples.

Results

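The genes that coat lipid droplets, fuse them or help them bud were followed in the inguinal adipose tissue (iAT) of mouse pups at postnatal day 6. They were 10 of the 19831 genes listed for this tissue, picked by symbol: the perilipins *Plin1*, *Plin2*, *Plin3*, *Plin4* and *Plin5*, the Cide genes *Cidea*, *Cideb* and *Cidec*, and *Fitm2* and *Bscl2* (seipin). The choice was made with the values of this same comparison known, so those values are given as a description and carry no test. Tissue from 3 wild-type samples was compared with tissue from 3 Npffr1-KO samples, in which the receptor gene *Npffr1* of neuropeptide FF is knocked out. All mice were kept specific pathogen-free, and total RNA was taken from whole tissue with TRIzol. The strain, the sex of the pups, the form of the knockout allele and whether animals were pooled were not given in the labels.

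Fat cells store triglyceride in droplets wrapped in a layer of phospholipid and proteins. White adipocytes hold a single large droplet, whereas brown and beige adipocytes hold many small ones beside their mitochondria. Perilipins sit on the droplet and control the access of lipases. Cide proteins gather where droplets touch and pass lipid from the smaller to the larger droplet. Seipin and FIT2, the product of *Fitm2*, act in the membrane of the endoplasmic reticulum, where droplets form. *Plin1* and *Cidec* are the forms known from white fat, although brown fat uses them too, and *Cidea* and *Plin5* are known from tissues that burn fat.

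For each gene the authors deposited 1 value per genotype and no value per sample. The values are on the scale of read counts normalized for library size and are called normalized counts here, but for genes with few reads the 2 values are drawn towards their common mean. For most genes the variation from sample to sample is therefore not known. Of the targeted gene *Npffr1*, whose reads could be worked out for each library, the wild-type libraries held 1, 0 and 5 reads and the Npffr1-KO libraries held 0, 0 and 0. The 6 library size factors lay between 0.916 and 1.04, and both extremes were Npffr1-KO libraries. Adipocyte genes were abundant in both genotypes. *Fabp4*, a fatty acid carrier of adipocytes, had 156285 normalized counts in wild-type tissue and 173188 in Npffr1-KO, and *Adipoq*, the adiponectin gene, had 37027 and 35360.

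Compared per kilobase of the listed gene length, the levels of the lipid droplet genes spanned more than 3 orders of magnitude. *Cidec* was the highest in wild-type, with 8222 normalized counts per kilobase, and only 184 of all listed genes lay above it. *Plin1* came next with 7201 normalized counts per kilobase, and *Plin4* with 5946. These 3 genes thus belonged to the most abundant transcripts of the tissue. *Bscl2* with 2723 and *Plin2* with 2271 normalized counts per kilobase formed a middle tier. *Plin3* followed with 826, *Fitm2* with 624 and *Cidea* with 261 normalized counts per kilobase. *Plin5* had only 35.7 and *Cideb* 2.36 normalized counts per kilobase, below the levels of most listed genes. In Npffr1-KO the order was the same except that *Cidea*, with 1226 normalized counts per kilobase, moved from the eighth to the sixth place, above *Plin3* and *Fitm2*. Neighbours in this order were as little as 1.14-fold apart in wild-type (*Cidec* over *Plin1*). Without values per sample it cannot be said which neighbours differ beyond the spread between animals.

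**Figure D1:**
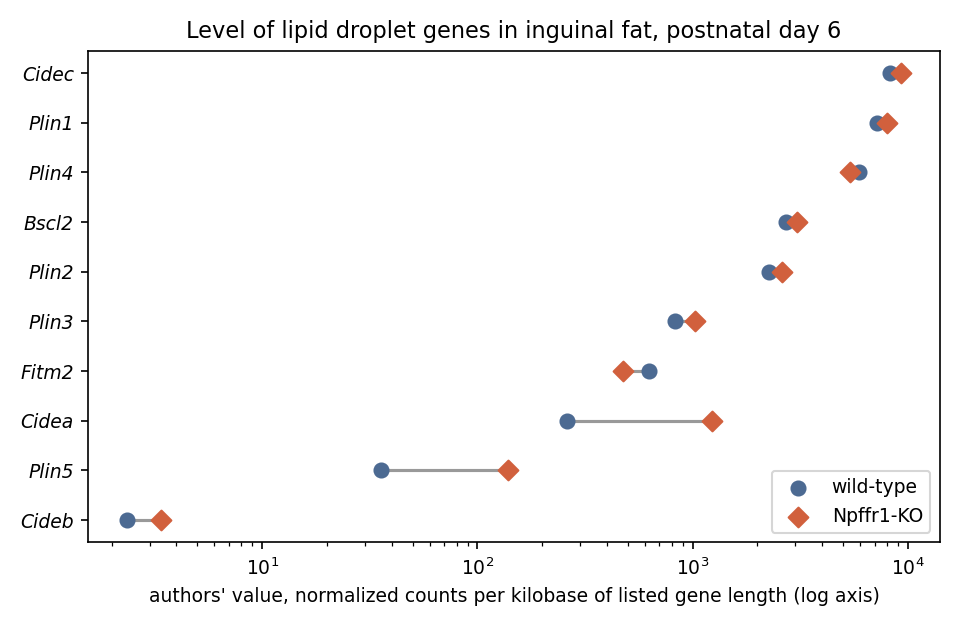
Level of each of the 10 lipid droplet genes in wild-type (circles) and Npffr1-KO (diamonds), as the authors' value per genotype in normalized counts per kilobase of listed gene length, on a log axis; no error can be drawn for these values. The lines joining both genotypes are long for *Cidea* (261 to 1226) and *Plin5* (35.7 to 139) and short for the abundant genes.

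Among the perilipins, *Plin5* stood out. *Plin5* (Entrez 66968), which ties droplets to mitochondria in oxidative tissues, had 71.2 normalized counts in wild-type tissue and 278 in Npffr1-KO. Npffr1-KO was thus 3.90-fold higher, a log2 ratio of 1.97. With the genotype values treated as read counts, counting error alone gives this log2 ratio a 95% Wilson interval from 1.75 to 2.19. The genotype values are not reads themselves. The interval also leaves out the spread between animals, as do all counting intervals below. The other 4 perilipins had similar values in both genotypes. *Plin1* (Entrez 103968), the main gatekeeper of lipolysis in adipocytes, had 13552 normalized counts in wild-type tissue and 15015 in Npffr1-KO, a log2 ratio of 0.15. *Plin2* (Entrez 11520), a perilipin of nearly all cell types that is prominent on small and young droplets, had 4285 and 4884 normalized counts, a log2 ratio of 0.19. *Plin3* (Entrez 66905), which moves from the cytosol onto new droplets, had 1784 and 2205 normalized counts, a log2 ratio of 0.31. *Plin4* (Entrez 57435), a long perilipin abundant in white fat, had 34219 and 30979.5 normalized counts, a log2 ratio of -0.14, and was the sole perilipin with a lower value in Npffr1-KO. Ratios differed with gene length over all genes. The median log2 ratio was 0.17 for genes of 1118 to 1349 bases and -0.11 for genes of 5153 to 6002 bases. When each ratio was set against the median of genes of like length, *Plin4* came to -0.04 and *Plin1* to 0.06, whereas *Plin5* kept 1.89.

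*Plin3*, *Plin4* and *Plin5* lie on the minus strand of chromosome 17 in the mouse genome build GRCm38. *Plin4* spans 56100591 to 56109803 and *Plin5* spans 56111601 to 56117596, with 1797 bases between them. *Plin3*, from 56277476 to 56292873, lies 159879 bases further on, with 7 listed genes of at least 10 normalized counts in between. The adjacent *Plin4* and *Plin5* thus had log2 ratios of -0.14 and 1.97. The 10 nearest genes of at least 10 normalized counts around *Plin5*, *Plin4* included, had log2 ratios from -0.18 to 0.39, with a median of 0.08. The high ratio of *Plin5* was not shared by its surroundings. Words of 31 bases that also occur in transcripts of other genes made up 0.681% of those in *Plin5* transcripts and 0% in *Plin4* transcripts, so few of their reads can be confused with those of other genes. *Plin1* lies on chromosome 7 from 79720218 to 79732903 and *Plin2* on chromosome 4 from 86648386 to 86670060, both on the minus strand.

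The 250 bases before the transcription start, taken from RefSeq on GRCm38.p6, are shown for the adjacent pair *Plin4* and *Plin5*, which differ most among the perilipins, and for *Cidec*, the most abundant gene of the set. All 3 are read from the minus strand. The windows are chr17:56109783-56110032 for *Plin4*, chr17:56117549-56117798 for the outer of the 2 *Plin5* starts, and chr6:113435761-113436010 for the outer of the 2 *Cidec* starts. Capitals mark the words AGGTCA, the core word of nuclear receptor sites such as those of the PPARs, and TATAA, both searched on both strands.
Plin4: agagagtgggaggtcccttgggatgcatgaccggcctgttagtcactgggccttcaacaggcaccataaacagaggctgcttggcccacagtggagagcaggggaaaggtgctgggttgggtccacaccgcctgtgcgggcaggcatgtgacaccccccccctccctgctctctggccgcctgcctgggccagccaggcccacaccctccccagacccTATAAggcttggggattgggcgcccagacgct
Plin5: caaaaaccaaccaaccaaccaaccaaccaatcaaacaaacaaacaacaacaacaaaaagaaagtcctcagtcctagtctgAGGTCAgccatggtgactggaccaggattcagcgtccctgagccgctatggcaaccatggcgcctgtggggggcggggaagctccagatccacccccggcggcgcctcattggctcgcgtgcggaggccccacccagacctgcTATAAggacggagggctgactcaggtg
Cidec: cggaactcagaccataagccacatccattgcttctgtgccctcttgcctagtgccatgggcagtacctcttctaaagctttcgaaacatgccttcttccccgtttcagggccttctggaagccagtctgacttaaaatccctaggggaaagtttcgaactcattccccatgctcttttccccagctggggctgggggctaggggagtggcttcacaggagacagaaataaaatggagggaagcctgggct

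The *Plin5* window holds AGGTCA at position -170 and TATAA at position -27, counted from the first base of the transcript. The *Plin4* window holds TATAA at position -32 and no AGGTCA, and the *Cidec* window holds neither word. Of the 32851 windows of this length in the RefSeq table, 14.0% hold AGGTCA and 22.8% hold TATAA on either strand, so both words are common. Of the 10 lipid droplet genes 9 have a window in that table. AGGTCA also occurs in the window of *Plin2* at position -218 and in that of 1 of the 3 *Bscl2* starts at position -202. A pair of AGGTCA words in the same orientation and 1 base apart, the full site of PPAR dimers, occurs in none of these windows and in 0.0335% of all windows. The outer *Plin5* window held 11 CpG and the *Plin4* window 6, against a median of 6 over all windows. These matches describe the letters of the windows only.

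Of the Cide genes, *Cidea* differed most between the genotypes. *Cidea* (Entrez 12683), which drives the growth of droplets in brown adipocytes, had 304 normalized counts in wild-type tissue and 1427 in Npffr1-KO. Npffr1-KO was 4.69-fold higher, a log2 ratio of 2.23 with a counting interval from 2.13 to 2.33. Against genes of like length the *Cidea* value came to 2.06, below this interval. *Cidec* (Entrez 14311), also known as Fsp27, which maintains the single large droplet of white adipocytes, had 14059.6 normalized counts in wild-type tissue and 15892 in Npffr1-KO, a log2 ratio of 0.18. *Cideb* (Entrez 12684), the form known from liver and gut, where it loads lipid onto lipoproteins, was close to the limit of detection with 2.80 and 4.01 normalized counts.

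*Cideb* was the sole lipid droplet gene whose reads could be worked out for each library. The 3 wild-type libraries each held 2 *Cideb* reads, and the Npffr1-KO libraries held 3, 4 and 7. After scaling for library size this gave 1.96 ± 0.03 normalized reads in wild-type and 4.86 ± 2.48 in Npffr1-KO (SD, n = 3 each). All Npffr1-KO libraries lay above all wild-type libraries. The same held for 4.68% of the 1047 genes with a mean from 2 to 5 normalized counts. The log2 ratio was 0.52 from the genotype values and 1.31 from the library means, since the genotype values of genes with few reads are drawn together. The 6 wild-type and 14 Npffr1-KO reads were also pooled over libraries and scaled for library size. Their log2 ratio had a 95% Wilson interval from -0.05 to 2.61, which leaves out the spread between libraries. Whether *Cideb* differs between the genotypes was not tested. These few reads may not all be from *Cideb*. *Cideb* overlaps *Nop9*, a gene on the opposite strand, over 1136 exon bases, and 72.8% of the 31-base words of *Cideb* transcripts also occur in those of *Nop9*. *Nop9* had 668 normalized counts in wild-type tissue and 727 in Npffr1-KO, far above *Cideb*.

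In place, the Cide genes are scattered. *Cidea* spans 67343604 to 67367785 of chromosome 18 (plus strand), *Cideb* spans 55754050 to 55758458 of chromosome 14 (minus strand), and *Cidec* spans 113424634 to 113435760 of chromosome 6 (minus strand). Neither *Cidea* nor *Cidec* transcripts share a 31-base word with another gene. The 10 nearest genes of at least 10 normalized counts around *Cidea* had log2 ratios from -0.12 to 0.57, all below that of *Cidea*. A transcript of *B430212C06Rik* crosses the *Cidea* gene on the opposite strand without overlapping its exons, and it had 30.7 normalized counts in wild-type tissue and 44.0 in Npffr1-KO.

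Neither gene of droplet formation was past 1.5-fold. *Bscl2* (Entrez 14705), which encodes seipin and is lost in a congenital lipodystrophy, had 3954 normalized counts in wild-type tissue and 4444 in Npffr1-KO, a log2 ratio of 0.17. *Fitm2* (Entrez 228859) had 1025 normalized counts in wild-type tissue and 779 in Npffr1-KO. It was the lowest of the lipid droplet genes in its log2 ratio, -0.40, with a counting interval from -0.47 to -0.32. Against genes of like length the *Fitm2* value came to -0.51, and 8.11% of all genes of at least 10 normalized counts had a lower uncentred ratio. *Fitm2* spans 163466379 to 163472629 of chromosome 2 (minus strand), and *Bscl2* spans 8837467 to 8848683 of chromosome 19 (plus strand). Exons of both overlap genes of the opposite strand, *2310001K24Rik* over 227 bases for *Fitm2* and *Gng3* over 398 bases for *Bscl2*, which also shares 239 exon bases with *AC129217.1* of its own strand. The partners of the opposite strand were low, with 9.96 and 12.0 normalized counts for *2310001K24Rik* in wild-type and Npffr1-KO, and 42.5 and 47.4 for *Gng3*. Words of 31 bases found in other genes made up 6.58% of those of *Fitm2* and 12.6% of those of *Bscl2*, more than for the perilipins, of which *Plin2* had the most with 5.16%.

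Of the 10 genes, 9 reached a mean of 10 normalized counts, and *Cideb* did not. With a ratio of 1.5 taken as the mark of size, *Cidea* and *Plin5* were at least 1.5-fold higher in Npffr1-KO, and none was at least 1.5-fold lower. Over all 15309 genes of at least 10 normalized counts, 2.78% were at least 1.5-fold higher and 3.12% at least 1.5-fold lower. Both genes were also past 2-fold, which held for 0.483% of all genes in the higher and for 0.314% in the lower direction. Only 2 genes had a higher ratio than *Cidea*, and 4 genes, *Cidea* among them, had a higher one than *Plin5*. As the set was chosen with these values known, nothing is read from the counts. The remaining 7 genes lay between -0.40 and 0.31 on the log2 scale, inside the range from -0.49 to 0.48 that held the middle 90% of all genes. The median log2 ratio of the 9 genes was 0.18, and 0.01 over all genes. Centring on genes of like length lowered it to 0.063. The high values of *Cidea* and *Plin5* are thus not a shift of the whole set.

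**Figure D2:**
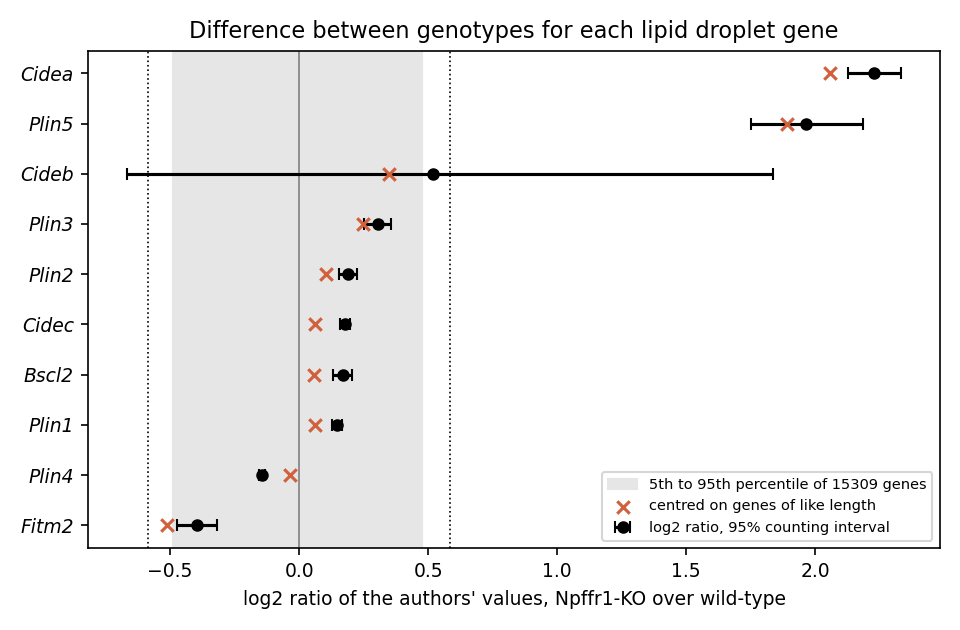
Log2 ratio of the authors' values, Npffr1-KO over wild-type, for the 10 lipid droplet genes (dots) with the 95% counting interval (bars), which leaves out the spread between animals. Crosses give the ratio after subtraction of the median of genes of like length, dotted lines mark 1.5-fold, and the grey band holds the middle 90% of 15309 genes; *Cidea* and *Plin5* lie outside it at 2.23 and 1.97, and the interval drawn for *Cideb*, from its genotype values, spans 0.

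**Figure D3:**
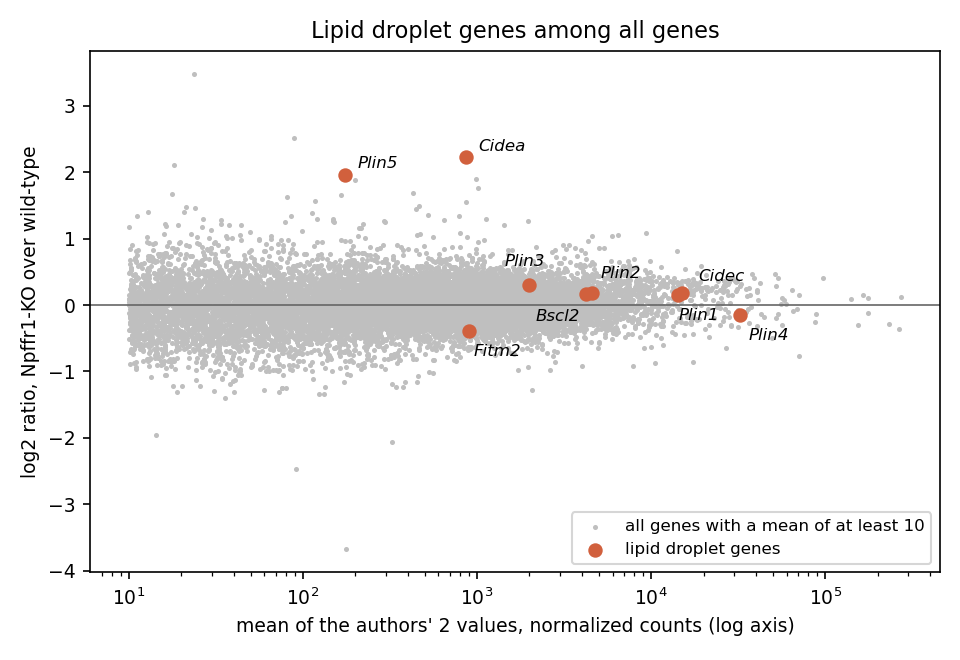
Log2 ratio of Npffr1-KO over wild-type against the mean of both genotype values in normalized counts (log axis) for all genes with a mean of at least 10 (grey) and the 9 lipid droplet genes among them (orange). The abundant *Plin1*, *Plin4* and *Cidec* lie near 0, and *Cidea* and *Plin5*, with means of 866 and 175 normalized counts, lie above the bulk of the genes.

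The brown and white forms of each family were then compared by their share of the family's sum per kilobase. *Cidea* made up 3.08% of the Cide sum in wild-type and 11.6% in Npffr1-KO, and *Cidec* 96.9% and 88.3%. Per kilobase, *Cidec* exceeded *Cidea* by 31.4-fold in wild-type and by 7.58-fold in Npffr1-KO. *Cidec*, which brown fat uses too, thus remained the main Cide transcript in both genotypes. *Plin5* made up 0.219% of the perilipin sum in wild-type and 0.814% in Npffr1-KO. *Plin1* exceeded it by 202-fold and by 57.3-fold per kilobase. The largest perilipin shares were those of *Plin1*, with 44.2% in wild-type and 46.6% in Npffr1-KO, and of *Plin4*, with 36.5% and 31.5%. *Cidea* and *Plin5* kept a similar proportion to each other, 7.33-fold in wild-type and 8.80-fold in Npffr1-KO. The sum of all perilipins per kilobase was 1.05-fold higher in Npffr1-KO and that of the Cide genes 1.24-fold. In normalized counts per kilobase, *Cidea* was higher in Npffr1-KO by 964 and *Plin5* by 104, against 1072 for *Cidec* and 777 for *Plin1*. The absolute difference of *Cidea* was thus near that of *Cidec*, whereas that of *Plin5* was small.

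**Figure D4:**
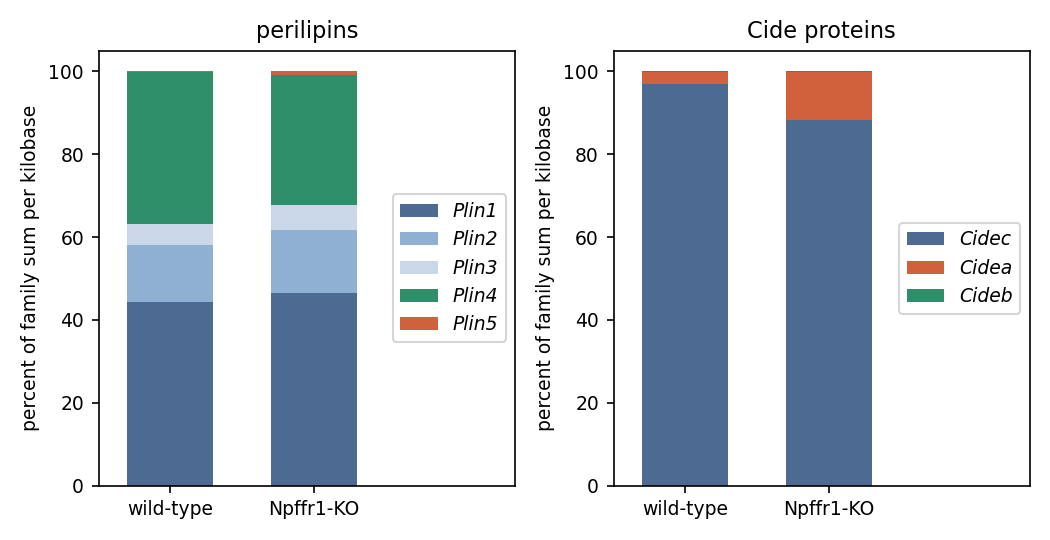
Share of each perilipin (left) and of each Cide gene (right) in the sum of its family, in percent of normalized counts per kilobase, for wild-type and Npffr1-KO. *Cidea* takes 3.08% of the Cide sum in wild-type and 11.6% in Npffr1-KO, whereas *Plin5* is a thin band in both; the bars show 1 value per genotype, so no error is drawn.

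Other genes of the droplet surface and of droplet formation stayed near the middle of all genes. Of 25 such genes of at least 10 normalized counts, from a list of 30, none was past 1.5-fold in either direction, and their median log2 ratio was 0.05. The highest was *Clstn3*, with 421 normalized counts in wild-type tissue and 573 in Npffr1-KO, a locus that also gives rise to a droplet protein of brown adipocytes. The lowest was *Hsd17b11*, a dehydrogenase found on droplets, with 2036 and 1526 normalized counts. A wider list was formed after the data were seen, from the 56 other genes that the table annotates to the lipid droplet. Of its 52 genes of at least 10 normalized counts, 1 was at least 1.5-fold higher and 1 at least 1.5-fold lower. The shares of all genes were 2.78% and 3.12%. The median log2 ratio of the 52 genes was 0.00. *Cidea* and *Plin5* had higher ratios than every gene on either list. They were singled out by their ratios, so nothing is read from this.

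Of 10 genes listed as lipases and their co-factors, 1 was at least 1.5-fold higher, against 2.78% of all genes, and none was as much lower. This was *G0s2*, an inhibitor of the lipase ATGL, with 3927 normalized counts in wild-type tissue and 8039 in Npffr1-KO, a log2 ratio of 1.03. ATGL itself, encoded by *Pnpla2*, had 34348 and 31768 normalized counts. Its activator *Abhd5*, which *Plin1* and *Plin5* bind, had 2950 and 2634 normalized counts. Of 11 enzymes of triglyceride synthesis of at least 10 normalized counts, none was past 1.5-fold, and their median log2 ratio was -0.09. The highest was *Dgat2*, which adds the last fatty acid on the droplet, with 9164 and 13679 normalized counts, and the lowest was *Dgat1*, which does so in the endoplasmic reticulum, with 4775 and 3921.

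The genes listed as regulators of perilipin and Cide genes, a corepressor among them, were uneven. Of 19 such genes, 4 were at least 1.5-fold higher and 1 was at least 1.5-fold lower in Npffr1-KO, against 2.78% and 3.12% of all genes. Their median log2 ratio was 0.18, and 12 had higher values in Npffr1-KO while 7 did not. *Ppara*, a receptor of fatty acids that acts on *Plin5* and *Cidea* in oxidative tissues, had 238 normalized counts in wild-type tissue and 651 in Npffr1-KO, a log2 ratio of 1.45. The co-activators *Ppargc1a* and *Ppargc1b* had log2 ratios of 0.83 and 0.90, and *Nr4a1*, a nuclear receptor induced by adrenergic stimuli, one of 0.74. *Pparg*, the main driver of *Plin1* and *Cidec* in adipocytes, had 3864 and 5098 normalized counts, a log2 ratio of 0.40, and *Cebpa* had 12682 and 12629. The lower gene was *Nrip1*, a corepressor that restrains *Cidea* and other brown fat genes, with 315 and 197 normalized counts, a log2 ratio of -0.68. The next lowest regulator was *Zfp516*, with a log2 ratio of -0.40. *Nrip1* and *Zfp516* were picked out after their values were seen. The part of these regulators in the values of *Cidea* and *Plin5* was not tested.

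The lipid droplet genes were last set beside markers of fat cell types and of other tissues. Of 15 brown adipocyte markers of at least 10 normalized counts, 9 were at least 1.5-fold higher in Npffr1-KO, against 2.78% of all genes. None of these markers was as much lower, and their median log2 ratio was 0.83. Their sum over all 18 listed genes was 5400.4 normalized counts in wild-type tissue and 10166 in Npffr1-KO. *Ucp1*, the uncoupling protein, had a log2 ratio of 1.55 and *Cox7a1*, a subunit of cytochrome c oxidase, one of 1.69, both below that of *Cidea*. Some other markers of this list differed little or were nearly missing. *Dio2* had 25.9 normalized counts in wild-type tissue and 31.7 in Npffr1-KO, *Zic1* had 11.5 and 11.8, and *Elovl3* had 0.45 and 0.51. *Fabp3*, a fatty acid carrier of brown fat and muscle picked out after its value was seen, was the marker above *Cidea*, with 26.5 and 151 normalized counts and a log2 ratio of 2.51. *Ppargc1a*, *Prdm16* and *Ebf2* stand on this list and on that of the regulators. Per kilobase, *Ucp1* and *Cidea* were level in wild-type, at 1.02-fold, and *Ucp1* came to 0.639 of *Cidea* in Npffr1-KO. *Prdm16* and *Ebf2*, transcription factors of brown and beige cells, had log2 ratios of -0.08 and 0.18, and were picked out after their values were seen. Of 13 white adipocyte markers, 1 was at least 1.5-fold higher and 1 as much lower, against 2.78% and 3.12% of all genes. These were *Lep* with a log2 ratio of 1.05 and *Agt* with -0.74. The median of the white markers was 0.13, or -0.069 against genes of like length. For 14 markers shared by both forms the median was -0.04. Of them 1 was at least 1.5-fold lower, *Acvr1c* with -0.66, against 3.12% of all genes. In whole tissue a larger share of a cell type and more RNA in each of its cells cannot be told apart.

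**Figure D5:**
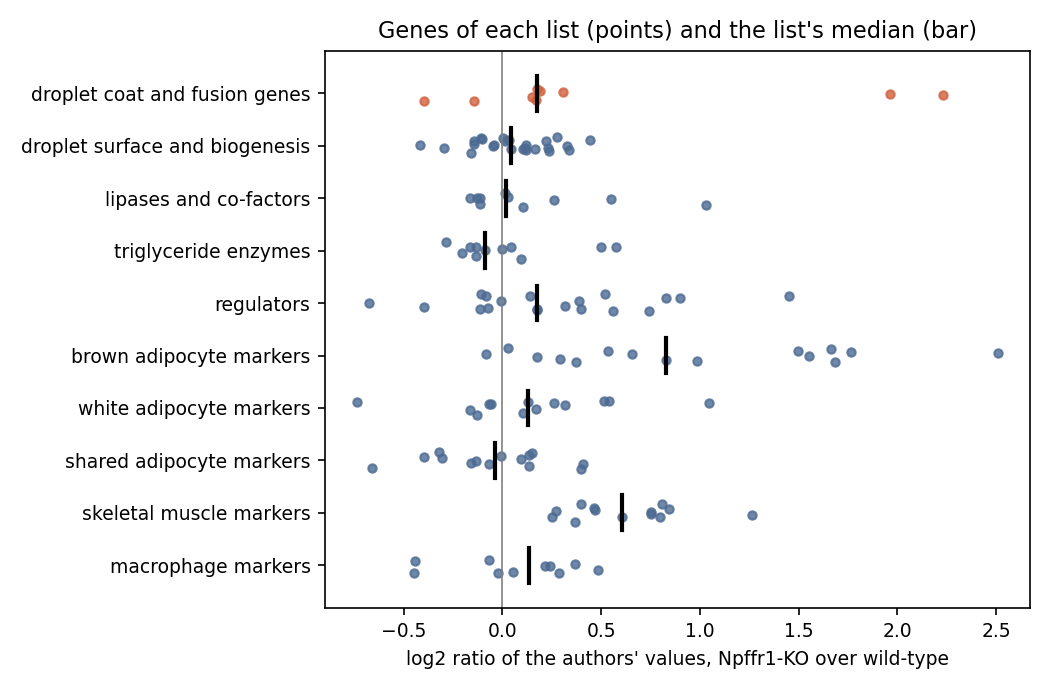
Log2 ratio of the authors' values, Npffr1-KO over wild-type, for the genes of each list whose mean reached 10 normalized counts (points, spread in height for legibility) and the median of each list (bars). Medians lie at 0.83 for brown adipocyte markers and 0.60 for skeletal muscle markers and between -0.09 and 0.18 for the other lists shown; the lipid droplet genes (orange) split into 7 points near 0 and *Plin5* and *Cidea* near 2.

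Markers of skeletal muscle, in which *Plin5* and *Ppara* are active, were also higher. All 13 of the 15 that reached 10 normalized counts had higher values in Npffr1-KO, as had 7835 of all 15309 genes. Of the 13 markers, 7 were at least 1.5-fold higher, against 2.78% of all genes. The median log2 ratio of the 13 was 0.60. The sum of the 15 markers was 2670.1 normalized counts in wild-type tissue and 3547 in Npffr1-KO. Most of this sum came from *Des*, with 1987 and 2362 normalized counts and a log2 ratio of 0.25. *Acta1*, the actin of skeletal muscle, had 171 and 410 normalized counts, and *Myh4*, the myosin of the fastest fibres, was close to 0 in both. The part of muscle in the values of *Plin5* and of the brown adipocyte markers was not tested. Macrophages, which use *Plin2*, had 10 markers of which none was past 1.5-fold, with a median log2 ratio of 0.14 and a sum of 23693 normalized counts in wild-type tissue and 27149 in Npffr1-KO. Mammary epithelium, in which *Cidea* and *Plin2* serve milk fat secretion, was nearly missing. The sum of the 9 mammary markers in the table was 77.8 normalized counts in wild-type tissue and 86.4 in Npffr1-KO, and *Csn2* and *Elf5* were close to 0. The part of mammary epithelium in the values of *Cidea* and *Plin2* was not tested. Of liver genes, which could bear on *Cideb*, *Alb* had 414 and 424 normalized counts. Of 5 liver markers of at least 10 normalized counts, 1 was at least 1.5-fold higher, against 2.78% of all genes. It was *Cyp2e1*, which adipocytes also express, with a log2 ratio of 1.88. The 6 proliferation markers had a median log2 ratio of 0.18, with none past 1.5-fold.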

How the data were processed

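Sequencing data of iAT RNA were used, with 3 samples labelled wild-type and 3 labelled Npffr1-KO. The submitters' processing notes name Bowtie2, RSEM and DESeq2. Their versions, the build and the annotation are not given in the sources consulted here. The authors deposited 1 signal per gene and genotype, on the scale of read counts normalized for library size, with the listed gene length in bases. Their fold changes and p-values, and a shorter table selected by them, were not used. The mean of the 2 signals is the mean normalized count of the 6 libraries, but their ratio is drawn towards 1 for genes with few reads, and so the ratios given here understate differences of low genes.

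Log2 ratios were computed for the 15309 genes whose mean reached 10. For centring on length, genes were split by listed length into 20 classes, and the median of its class was subtracted from each ratio. No test was possible with 1 value per genotype, and none was run. Counting intervals are 95% Wilson intervals of the Npffr1-KO share of 3 times both values, and for *Cideb* also of its reads. Genes with a single read in the experiment fall on 6 values. From these, whole reads per library were found for all 3661 genes with a mean of up to 5, with exactly 1 combination each within a relative tolerance of 1e-14. The genotype of a library is the one whose value its single reads raise. Libraries were not tied to sample numbers. The search was tested on simulated data. Nothing says whether the samples are separate animals, so SDs may be technical in part.

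The members and gene lists were chosen with earlier results of these data known. The text names all 10 members and *Npffr1*. The rule for list genes selects up to 4 with the largest log2 ratio in size among means of at least 100 and the 2 with the highest mean. Only some of the genes so selected are named, and the others enter the counts and medians. Other names were chosen after their values were seen. Among them are *Adipoq*, *Fabp3*, *Dio2*, *Zic1*, *Elovl3*, *Prdm16*, *Ebf2*, *Nrip1*, *Zfp516*, *Myh4*, *Csn2*, *Elf5* and the overlapping genes. Gene places, overlaps and 31-base words come from GENCODE M21 on GRCm38, matched by symbol, and windows before the start from RefSeq. Python 3.11.15, numpy 2.4.6, pandas 2.3.3, scipy 1.17.1 and numba 0.67.0 were used.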

Additional observations from a re-analysis of the deposited data

How the results depend on the processing

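No value per sample was listed, so of the lipid droplet genes only *Cideb* has a spread between libraries. No paired analysis was possible because the columns carry no replicate numbers. The numbers of lipid droplet genes at least 1.5-fold higher (2) or lower (0) were the same at 2-fold, under both centrings and with no or a higher minimum mean. Centring on genes of like length moved the median log2 ratio from 0.18 to 0.063 for the lipid droplet genes, from 0.83 to 0.96 for brown adipocyte markers, from 0.13 to -0.069 for white ones, from -0.04 to -0.14 for shared ones, from 0.14 to 0.033 for macrophages and from 0.29 to 0.019 for mammary epithelium. Without a minimum mean, the medians were 0.59 for brown adipocyte, 0.47 for muscle and 0.051 for mammary markers, and with a minimum of 50 they were 0.99 for brown adipocyte, 0.75 for muscle and 0.96 for liver markers. In these settings fewer or more genes enter the median. At 2-fold, 1 regulator was higher and 0 were lower, 0 white and 0 shared adipocyte markers were lower, and 1 muscle marker was higher. Of the alternative values of single lipid droplet genes, 32 stayed inside their counting interval and 8 moved out of it, all under centring on length.

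The log2 ratio of *Cideb* was 0.52 from the genotype values, 1.31 from the library means and 1.22 from reads without size factors. Leaving out each library in turn gave 0.82 to 1.58, the lowest without the Npffr1-KO library of 7 reads. In place of counts per kilobase, normalized counts kept 5 of 10 genes at their place in the order of levels.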
